A study of Homo sapiens with 12 samples.

Results

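The multidrug ABC transporters are the plasma membrane pumps of the ATP-binding cassette superfamily that carry drugs and drug conjugates out of cells. The 8 genes described here were chosen by name, not by their values. They are the multidrug resistance proteins ABCC1, ABCC2, ABCC3, ABCC4, ABCC5 and ABCC10, P-glycoprotein ABCB1, and the breast cancer resistance protein ABCG2. All 8 had a count above 0 in at least 1 library, and they are 8 of the 36866 genes in the table. Poly(A) RNA was sequenced from 2 human acute myeloid leukemia cell lines of monocytic type, THP-1 and U-937, which the labels give a complex karyotype. Each line had been incubated for 24 h with honokiol, a biphenolic compound of magnolia bark, or with 0.1% DMSO, its solvent. There were 3 libraries in each of the 4 groups (THP-1 DMSO, THP-1 honokiol, U-937 DMSO and U-937 honokiol). The labels list 20 and 35 µM honokiol without naming the line, so between the lines, dose and line cannot be told apart wherever honokiol is involved. Nothing in the labels says whether libraries of a group came from separate cultures, and the p-values then measure only the spread between these libraries, which may be technical.

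An ABC exporter couples the binding and hydrolysis of ATP to a change of shape that moves its cargo from the cytoplasm or the membrane to the outside. Members of the ABCC family mostly carry anions, such as conjugates with glutathione, glucuronate or sulfate and cyclic nucleotides. ABCB1 mostly carries uncharged or basic hydrophobic drugs, while ABCG2 carries drugs and also anions such as urate. Both are known for their part in resistance of leukemia cells to chemotherapy. ABCG2 is a short transporter that works as an assembly of several copies, and its coding length in the GENCODE 29 annotation was 1965 bases, against 3840 to 4635 bases for the other 7 genes.

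The 8 genes lie on 8 different chromosomes of GRCh38, the build whose positions the table holds. ABCC1 spans chr16:15949577-16143074 (plus strand), ABCC2 chr10:99782640-99852044 (plus), ABCC3 chr17:50634777-50692253 (plus) and ABCC4 chr13:95019835-95301451 (minus). ABCC5 spans chr3:183919934-184017939 (minus), ABCC10 chr6:43427366-43450427 (plus), ABCB1 chr7:87503017-87713323 (minus) and ABCG2 chr4:88090150-88231628 (minus). RUNDC3B overlaps ABCB1 by 85776 bases on the other strand, ABCC5-AS1 overlaps ABCC5 by 5082 bases on the other strand, and DLK2 overlaps ABCC10 by 79 bases on the other strand. Where the counting did not use strand, reads of such pairs cannot be told apart, and whether it did is not given in the sources used here. A processed pseudogene, AC097484.2, lies inside ABCG2 on the same strand over 3269 bases.

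RefSeq promoter windows (GRCh38.p14) were matched by symbol for 6 of the 8 genes, 12 windows in all, and there was no entry for ABCC1 and ABCC3. ABCC4 and ABCC2 were called higher in U-937 than in THP-1 with DMSO in at least 1 of the fits described further on. ABCC5 was also higher there, by 1.55-fold, and ABCG2 was counted in THP-1 cells with honokiol only. The 250 bases upstream of a transcript start are shown for ABCC4, ABCC2 and the most upstream start of ABCG2. They are written 5′ to 3′ on the gene's own strand, with each CpG dinucleotide in capitals.
ABCC4, chr13:95301452-95301701, minus strand: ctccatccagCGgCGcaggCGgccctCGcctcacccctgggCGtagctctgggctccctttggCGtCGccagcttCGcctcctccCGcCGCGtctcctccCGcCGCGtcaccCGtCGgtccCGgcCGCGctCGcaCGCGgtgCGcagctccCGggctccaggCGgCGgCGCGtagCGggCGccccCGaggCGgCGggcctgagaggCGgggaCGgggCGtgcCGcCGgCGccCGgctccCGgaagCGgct
ABCC2, chr10:99782390-99782639, plus strand: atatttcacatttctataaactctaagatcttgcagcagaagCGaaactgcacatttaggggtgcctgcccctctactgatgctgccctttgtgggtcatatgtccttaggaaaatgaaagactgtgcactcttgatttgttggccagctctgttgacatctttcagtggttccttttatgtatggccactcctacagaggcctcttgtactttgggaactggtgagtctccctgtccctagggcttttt
ABCG2, chr4:88231627-88231876, minus strand: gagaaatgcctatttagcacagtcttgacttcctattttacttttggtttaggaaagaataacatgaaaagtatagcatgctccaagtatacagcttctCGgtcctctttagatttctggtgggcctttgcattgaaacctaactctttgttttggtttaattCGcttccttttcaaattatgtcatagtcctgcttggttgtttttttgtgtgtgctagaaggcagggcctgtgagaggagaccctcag
The ABCC4 window held 42 CpG dinucleotides and 80.4% G or C, and 98.6% of the 35116 RefSeq promoter windows held fewer. The ABCC2 window held 1 and this ABCG2 window 2, against a median of 11 CpG over all windows. The other 4 ABCG2 windows, which lie at starts further downstream, held 32, 29, 27 and 5. The ABCC5 window held 21, the ABCC10 windows 14 and 16, and the ABCB1 windows 12 and 1. The ABCC2 window lay below the median of all windows, and the ABCC4 and ABCC5 windows lay above it. Whether CpG content bears on the levels of these genes was not tested. Motif letters were searched on both strands. The letters TGACNNNGC, the core of the antioxidant response element, were found 1 time in the ABCC4 window and 1 time in 1 ABCC10 window, and they occur in 10.9% of all windows. GCGTG, the core of the xenobiotic response element, was found 2 times each in the ABCC4 window, 1 ABCC10 window and 3 of the downstream ABCG2 windows and 1 time in 1 ABCB1 window, and it occurs in 32.2% of all windows. The printed ABCC2 and ABCG2 windows held no match to it. A match to the first motif can share its last letters with a match to the second. The GC box GGGCGG, which occurs in 42.6% of all windows, was found 1 time in the ABCC5 window, 3 times in 1 ABCC10 window and 2 times in each of 2 downstream ABCG2 windows, and in none of the 3 printed windows. These matches describe letters only.

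The libraries held about 14351742 to 18766438 fragments each, since a fragment was worth about 4 of the estimated counts in the table. Transcripts of the mitochondrial genome made up 13.7% of THP-1 DMSO replicate 1 and 12.6% of U-937 DMSO replicate 1, against 5.61% to 7.55% in the other 10 libraries, and the part of this in the results was not tested beyond the values without those libraries. The leukocyte gene PTPRC was expressed in every group. Of 10 myeloid markers, 10 reached a mean of 1 FPKM (fragments scaled to transcript length and library size) in both THP-1 groups, 8 in U-937 DMSO and 9 in U-937 honokiol. The myeloperoxidase gene MPO stayed at a mean of 0.0833 FPKM in U-937 DMSO and 0.10 in U-937 honokiol. None of the 4 epithelial and liver markers and neither of the 2 fibroblast markers reached 1 FPKM in any group. Of the T cell list, CD4 reached it in all 4 groups and the other 3 genes in none.

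Because FPKM values are scaled to length, they allow levels to be set side by side between genes. ABCC1 was the most abundant of the 8 transporters in all 4 groups, with a mean of 9.63 to 12.7 FPKM, and its lowest library was above the highest library of every other member within each group. It made up 52.0% ± 6.76 (SD, n = 3) of the summed FPKM of the 8 genes in THP-1 DMSO, 49.8% ± 1.18 in THP-1 honokiol, 45.0% ± 5.20 in U-937 DMSO and 43.8% ± 3.34 in U-937 honokiol. The summed FPKM of the 8 genes was 18.4 ± 2.10 in THP-1 DMSO, 22.3 ± 2.39 in THP-1 honokiol, 28.3 ± 1.11 in U-937 DMSO and 25.9 ± 2.31 in U-937 honokiol (SD, n = 3 in each). In bulk RNA, fewer cells with a transcript and less of it per cell cannot be told apart.

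The order of the other members differed between the lines. In THP-1 DMSO the order by mean was ABCC10, ABCC5, ABCC4, ABCC3, ABCC2 and then ABCB1 and ABCG2, and the libraries of ABCC10 and ABCC5 overlapped. With honokiol the order in THP-1 was the same down to ABCC3, followed by ABCG2 and ABCC2, whose libraries overlapped, and ABCB1. In U-937 ABCC4 came next after ABCC1 with either treatment, without overlap of its libraries with the next member. ABCC5 was above ABCC10 in U-937 DMSO and below it in U-937 honokiol, in neither case with overlapping libraries. ABCC2 followed these 4 in U-937, and ABCC3, ABCB1 and ABCG2 were at or near 0 there.

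**Figure D1:**
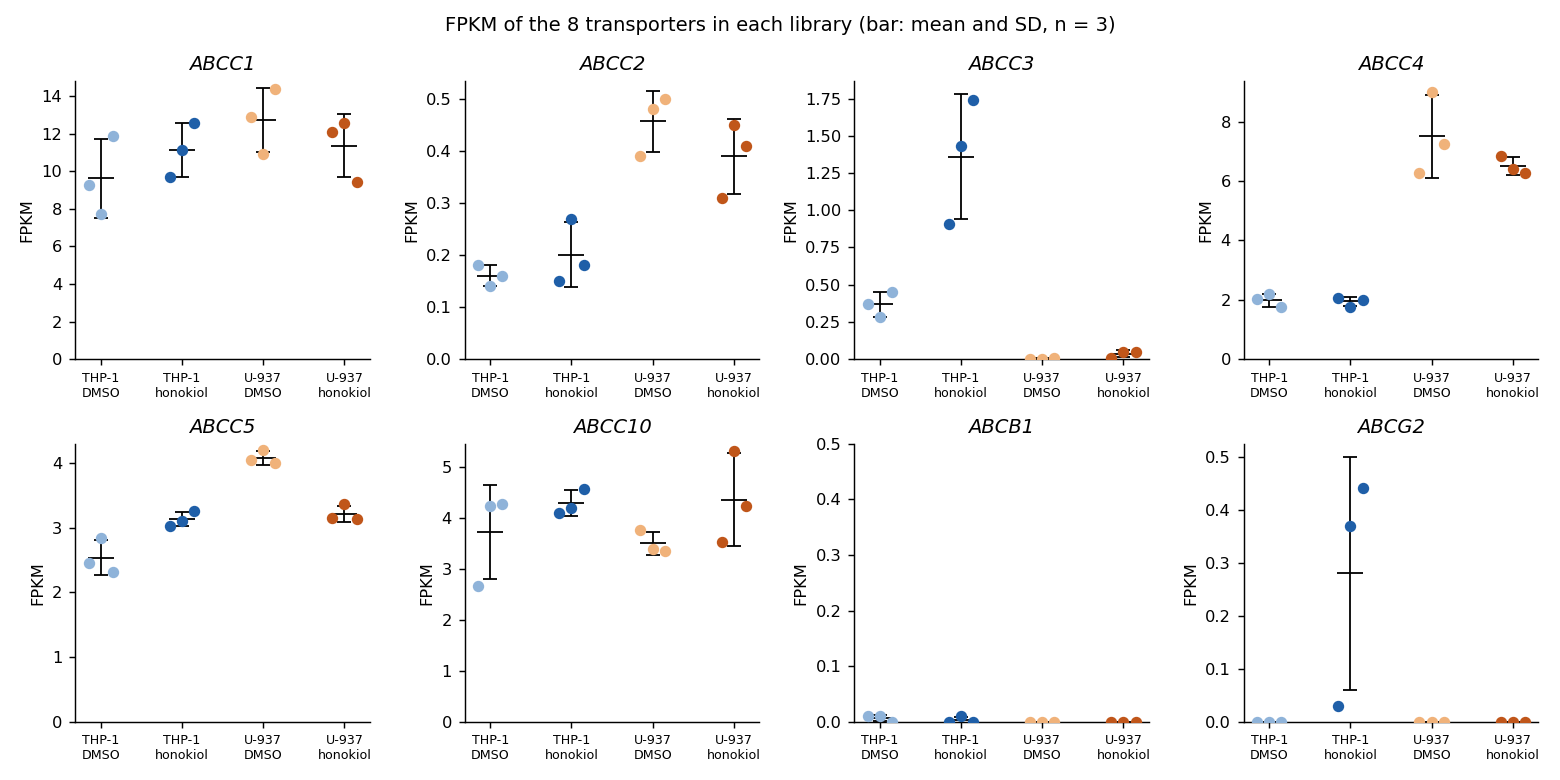
FPKM of each of the 8 transporters (1 panel each, with its own vertical axis from 0) in the 12 libraries, by group, where points are libraries and the black bar is the mean with its SD (n = 3). ABCC4 lay at 1.74 to 2.18 FPKM in THP-1 and at 6.26 to 9.01 in U-937, ABCC3 was highest with honokiol in THP-1, and ABCG2 was above 0 in the THP-1 honokiol group only.

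Whether honokiol changed the transporters was asked in THP-1 and U-937 separately, with the quasi-likelihood test of edgeR and p-values adjusted over all genes tested (Benjamini-Hochberg). A gene was called differentially expressed (DEG) when its adjusted p lay under 0.05 and its log2 fold change was beyond 1 in either direction. Genes with at least 0.5 FPKM in at least 3 of the 6 libraries entered. None of the 8 transporters was a DEG in either line. In THP-1, 5 members entered (ABCC1, ABCC3, ABCC4, ABCC5 and ABCC10), and 6 of all 14600 genes tested were DEGs (0.0411%). ABCC3 entered only through its honokiol libraries so that its entry already favoured a difference. By unadjusted p under 0.05, 1 of the 5 passed, ABCC3, against 13.1% of the genes tested. In U-937, 4 members entered (the same without ABCC3), and 13 of 13726 genes were DEGs (0.0947%). By unadjusted p under 0.05, 1 of the 4 passed, ABCC5, against 16.7% of the genes tested. DESeq2, run on the same genes, called ABCC3 in THP-1 (adjusted p = 2.65e-06) and no member in U-937 by the same criterion. Libraries of the treatments did not overlap for 2 of the 5 members in THP-1, ABCC3 and ABCC5, against 20.6% of all genes tested, and for 1 of the 4 in U-937, ABCC5, against 24.2%. These shares rest on 5 and 4 genes and are not a result about the members.

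**Figure D2:**
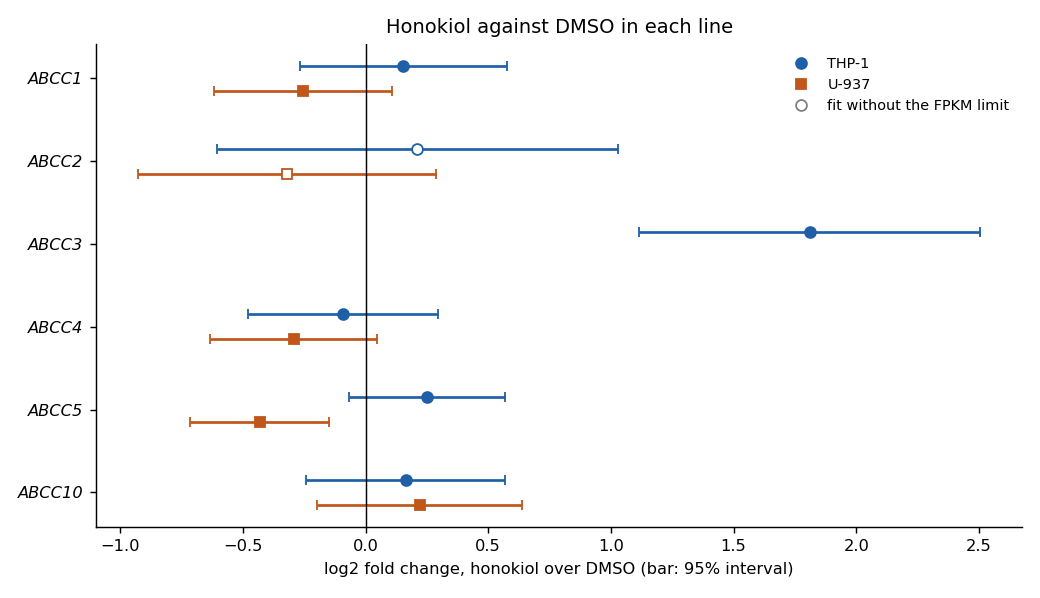
Log2 fold change of honokiol over DMSO (horizontal axis) for 6 transporters in THP-1 (blue circles) and U-937 (orange squares), with 95% intervals from edgeR. Filled symbols are from the fit with the FPKM limit and open symbols, for ABCC2, from the fit without it, ABCC3 in U-937 is not drawn because its DMSO libraries held 10 counts in all, and the intervals that leave out 0 are those of ABCC3 in THP-1 and ABCC5 in U-937.

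The question of how the lines differ was asked separately with DMSO and with honokiol. With DMSO, 1 of the 4 members that entered was a DEG, ABCC4, against 32.4% of 14617 genes. By adjusted p under 0.05 at any fold change 2 of the 4 passed, ABCC4 and ABCC5, against 47.3% of the genes tested. With honokiol, 2 of the 5 that entered were DEGs, ABCC4 and ABCC3, against 32.6% of 15135 genes, and the same 2 passed at any fold change, against 57.1%. ABCC3 had entered through its THP-1 libraries only. In the fits without the FPKM limit, the DEGs among the members were ABCC2, ABCC3 and ABCC4 with DMSO, against 20.0% of 33502 genes, and ABCC3, ABCC4 and ABCG2 with honokiol, against 20.3% of 34391 genes. ABCG2, at 0 counts in U-937, entered the fit with honokiol through its THP-1 libraries only, which fixed the direction of its call. Shares over so few genes are not a result about the members.

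**Figure D3:**
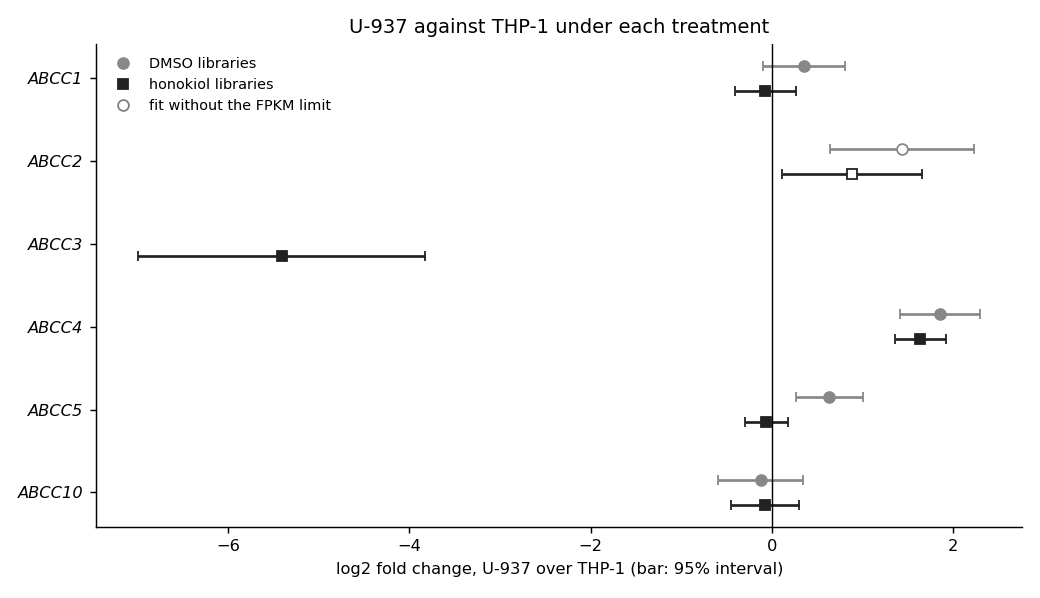
Log2 fold change of U-937 over THP-1 (horizontal axis) for 6 transporters in the DMSO libraries (grey circles) and the honokiol libraries (black squares), with 95% intervals from edgeR. Open symbols are from the fit without the FPKM limit, ABCC3 with DMSO is not drawn because its U-937 libraries held 10 counts in all, ABCC4 lies at 1.85 and 1.64, ABCC3 with honokiol at -5.41, and the intervals of ABCC1 and ABCC10 hold 0.

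ABCC1, which exports glutathione conjugates such as leukotriene C4, measured 9.29, 7.72 and 11.88 FPKM in the THP-1 DMSO libraries and 9.69, 11.14 and 12.58 with honokiol. In U-937 it measured 12.90, 10.95 and 14.39 with DMSO and 12.10, 12.56 and 9.45 with honokiol. The groups overlapped in every comparison. The log2 fold change of honokiol was 0.15 (SE 0.18) in THP-1 and -0.26 (SE 0.16) in U-937, with edgeR adjusted p-values of 0.740 and 0.454. The 95% intervals, -0.27 to 0.58 and -0.62 to 0.11, leave out any 2-fold change. Between the lines the log2 fold change was 0.35 (SE 0.20) with DMSO and -0.07 (SE 0.14) with honokiol (adjusted p = 0.179 and 0.692). The second of these values changed sign with the test and with the library left out.

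ABCC2, the pump that secretes conjugated bilirubin from liver cells into bile, was the lowest of the ABCC members in THP-1. It measured 0.18, 0.14 and 0.16 FPKM in THP-1 DMSO and 0.15, 0.27 and 0.18 in THP-1 honokiol. In U-937 it measured 0.39, 0.48 and 0.50 with DMSO and 0.31, 0.45 and 0.41 with honokiol. All 6 U-937 libraries were above all 6 THP-1 libraries, and the treatments overlapped in both lines. It never reached the FPKM limit in 3 libraries of a line, and its counts ran from 85 to 312 per library. In the fit without the limit, the log2 fold change of U-937 over THP-1 was 1.43 (SE 0.36, adjusted p = 0.0143) with DMSO and 0.88 (SE 0.33, adjusted p = 0.0900) with honokiol. The call with DMSO was lost without THP-1 DMSO replicate 2 (adjusted p = 0.0526) or replicate 3 (0.0505), and over all alternatives the adjusted p ran from 0.000445 to 0.0526. With honokiol against DMSO the log2 fold change was 0.21 (SE 0.36) in THP-1 and -0.32 (SE 0.27) in U-937, with adjusted p-values of 0.860 and 0.624, and the THP-1 value was -0.08 without honokiol replicate 2.

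ABCC3, which carries bile salts and glucuronides across the basal face of liver and gut cells, had the largest honokiol fold change of the 5 members that passed the FPKM limit in THP-1. In THP-1 it measured 0.37, 0.28 and 0.45 FPKM with DMSO (268, 200 and 319 counts) and 0.91, 1.43 and 1.74 with honokiol (787, 1145 and 1320 counts). Every honokiol library was above every DMSO library, and honokiol replicate 1 was the lowest of the 3. The log2 fold change was 1.81 (SE 0.30, 95% interval 1.12 to 2.51), that is 3.51-fold, and edgeR's adjusted p was 0.0955, which misses the criterion. The adjusted p ran from 2.65e-06, with DESeq2, to 0.332, in an edgeR fit of all 12 libraries. Without the FPKM limit and with counts divided by 4, edgeR called ABCC3 as well (adjusted p = 0.00232), so the call rests on the tool and its settings. Under the FPKM limit no fit could be made without one of the honokiol libraries, since 3 of 6 were needed. Without the limit the log2 fold change lay between 1.61 and 2.01 whichever THP-1 library was left out.

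In U-937 ABCC3 was at 0, 0 and 10 counts with DMSO and at 4, 34 and 31 with honokiol, that is about 2.5 against 17.25 fragments over the groups. Their ratio, scaled to library size, was 7.47 with a 95% counting interval of 1.99 to 48.9, which covers counting error only. Replicate 1 of the honokiol group, at 4 counts, lay within the DMSO range. THP-1 held about 197 fragments with DMSO and 813 with honokiol, which put THP-1 above U-937 by a ratio of 81.2 (25.0 to 492) with DMSO and 39.5 (24.6 to 67.9) with honokiol. In the fit without the FPKM limit, which does not depend on the level in THP-1, edgeR gave a log2 fold change of U-937 over THP-1 of -5.39 (SE 0.68, adjusted p = 0.000893) with honokiol and an adjusted p of 0.00126 with DMSO. With the limit, which ABCC3 passed through THP-1 only, the honokiol value was -5.41 (SE 0.68, adjusted p = 0.000408). All 6 THP-1 libraries lay above all 6 U-937 libraries.

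**Figure D4:**
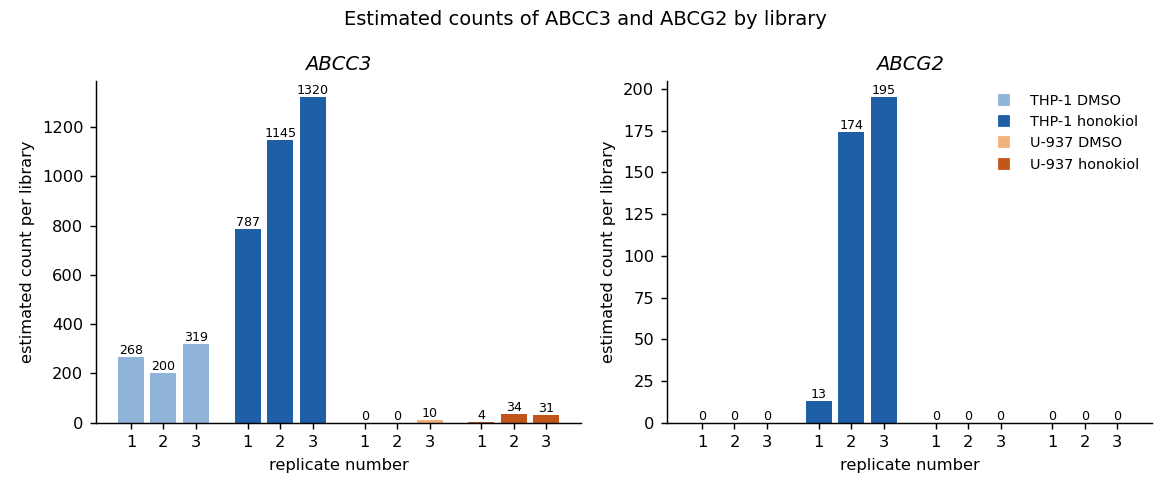
Estimated counts of ABCC3 (left) and ABCG2 (right) in each of the 12 libraries, as bars from 0, with the replicate number below and the count above each bar. ABCC3 was counted in all 6 THP-1 libraries, at 200 to 319 with DMSO and 787 to 1320 with honokiol, and ABCG2 in the 3 THP-1 honokiol libraries only, at 13, 174 and 195.

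ABCC4, an exporter of cyclic nucleotides, prostaglandins and nucleotide analogue drugs, separated the lines. It measured 2.03, 2.18 and 1.74 FPKM in THP-1 DMSO and 2.07, 1.75 and 2.0 in THP-1 honokiol. In U-937 it measured 6.26, 9.01 and 7.26 with DMSO and 6.83, 6.41 and 6.26 with honokiol. The lowest U-937 library stood well above the highest THP-1 library. U-937 exceeded THP-1 by 3.61-fold with DMSO (log2 fold change 1.85, SE 0.19, edgeR adjusted p = 0.000109) and by 3.11-fold with honokiol (log2 fold change 1.64, SE 0.12, adjusted p = 3.86e-05). Both calls held in every alternative run, with adjusted p-values of at most 0.00134 and 0.000716. Without both DMSO libraries numbered 1, those with the high mitochondrial share, the DMSO value was 1.96. Honokiol against DMSO gave a log2 fold change of -0.09 (SE 0.17, adjusted p = 0.833) in THP-1, where the groups overlapped, and -0.29 (SE 0.15, adjusted p = 0.363) in U-937, where 2 honokiol libraries lay between the DMSO libraries and replicate 3 equalled the lowest of them.

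ABCC5, which also exports cyclic nucleotides and nucleotide analogues, measured 2.45, 2.84 and 2.32 FPKM in THP-1 DMSO and 3.03, 3.11 and 3.25 in THP-1 honokiol. In U-937 it measured 4.04, 4.20 and 4.0 with DMSO and 3.15, 3.36 and 3.14 with honokiol. The honokiol libraries lay above the DMSO libraries in THP-1 and below them in U-937, in both lines without overlap. The log2 fold change was 0.25 (SE 0.14, adjusted p = 0.464) in THP-1 and -0.43 (SE 0.12, adjusted p = 0.163) in U-937, neither past the criterion. DESeq2's adjusted p in U-937 was 0.0426, with a log2 fold change of -0.44. Between the lines the log2 fold change was 0.63 (SE 0.16, adjusted p = 0.0119) with DMSO, under 2-fold, and -0.06 (SE 0.10, adjusted p = 0.633) with honokiol. The first was past the adjusted threshold without the fold limit, but without THP-1 DMSO replicate 3 it was 0.49 with an adjusted p of 0.0836.

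ABCC10, a pump of taxanes and other hydrophobic drugs, measured 2.66, 4.24 and 4.27 FPKM in THP-1 DMSO and 4.11, 4.20 and 4.58 in THP-1 honokiol. In U-937 it measured 3.76, 3.40 and 3.36 with DMSO and 3.53, 5.33 and 4.24 with honokiol. The groups overlapped in every comparison, and the low value of THP-1 DMSO was in replicate 1, a library with a high mitochondrial share. The log2 fold change of honokiol was 0.16 (SE 0.17, adjusted p = 0.711) in THP-1 and 0.22 (SE 0.18, adjusted p = 0.582) in U-937. Between the lines it was -0.13 (SE 0.21, adjusted p = 0.648) with DMSO and -0.08 (SE 0.16, adjusted p = 0.693) with honokiol. The 95% intervals of the 4 values lay within -0.60 and 0.64.

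ABCB1, the P-glycoprotein that exports anthracyclines and vinca alkaloids, was close to the floor of the measurement. It had 4, 4 and 0 counts in THP-1 DMSO and 0, 4 and 0 in THP-1 honokiol, that is 1 fragment in each of 3 libraries, and 0 in all 6 U-937 libraries. A count of 0 allows up to 12 counts, or 3 fragments, per library, which is 0.160 to 0.209 CPM, the count scaled to library size. No difference of ABCB1 was detectable at this depth.

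ABCG2, which exports urate and drugs such as mitoxantrone and topotecan, was listed at 0 in 9 of the 12 libraries. In THP-1 honokiol it had 13, 174 and 195 counts (0.03, 0.37 and 0.44 FPKM). Replicate 1 was near the level of 3 fragments that a count of 0 allows, and replicates 2 and 3 were well above it. Summed over the 3 libraries there were about 95.5 fragments against 0, where each library at 0 was set to 3 fragments, 9 over a group. Since 0 was set to the most that it allows, the ratio of these sums, scaled to library size, is a lower bound and not an estimate. It was at least 9.33 for honokiol over DMSO in THP-1 and at least 8.90 for THP-1 over U-937 with honokiol. Both ratios rest on replicates 2 and 3, since replicate 1 held about 3.25 fragments, and they leave out the spread between libraries. ABCG2 stayed under the FPKM limit, and without the limit edgeR's adjusted p was 0.263 for honokiol in THP-1 and 0.0126 between the lines with honokiol. ABCG2 entered both comparisons through the THP-1 honokiol libraries only, which fixed the direction. Its first comparison misses the criterion, and its level, under 0.5 FPKM, was below that of ABCC3 in each of the 3 libraries.

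Whether the 2 lines responded differently to honokiol was tested with all 12 libraries together, and each DMSO group served as the control of its own line. None of the 5 members that entered was called, and of 16283 genes 18 were (0.111%). By unadjusted p under 0.05, 1 of the 5 passed, ABCC5, against 9.37% of the genes tested. The log2 fold change of ABCC5 in U-937 less that in THP-1 was -0.69 (SE 0.17, 95% interval -1.06 to -0.33, edgeR adjusted p = 0.232). DESeq2 gave an adjusted p of 0.00690 for it. The other differences were -0.42 (SE 0.25) for ABCC1, -0.21 (SE 0.22) for ABCC4, 0.05 (SE 0.26) for ABCC10 and 0.98 (SE 1.19) for ABCC3. The ABCC3 value rests on the few U-937 counts and turned negative on the FPKM scale, at -0.99 with a pseudocount of 0.5, and its direction cannot be read.

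Over the 12 libraries the members fell into different patterns, given here as Pearson's r of log2(FPKM + 0.5) and as a description, since all points share the 2 lines and the treatments. ABCC2 and ABCC4 were most alike among the members (r = 0.912), and ABCC3 and ABCG2 came next (r = 0.835). ABCC3 and ABCC4 ran opposite to each other (r = -0.845), following the lines. Over 13663 genes, those most like ABCC4 were EIF1AX, URGCP and ERCC6L (each r = 0.993), and those most like ABCC3 were S100A16 (0.988), ABCG1 (0.988) and SLC2A14 (0.986). ABCC5 was most like MIER2 (0.964), VARS1 (0.923) and RCC1 (0.920). ABCC1 was most like NAA80 (0.934), AC006128 (0.910) and ERCC2 (0.893), and ABCC10 most like MELTF (0.928), MRNIP (0.924) and TAX1BP3 (0.896).

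Of 40 other ABC transporter genes, 36 were in the table and 21 entered in THP-1 with honokiol. Among those 1 was a DEG, ABCG1, an exporter of cholesterol, from 0.69 to 3.81 FPKM (log2 fold change 2.41, SE 0.21, edgeR adjusted p = 0.0433). No gene at all was called in THP-1 without the FPKM limit, with limma on either FPKM scale, with the replicate block, or without DMSO replicate 2, honokiol replicate 2 or honokiol replicate 3, so this call is not kept in those fits. ABCA1, the partner of ABCG1 in cholesterol efflux, was named after its values were seen and had a log2 fold change of 1.77 (SE 0.26, adjusted p = 0.0714). The median log2 fold change of the 21 was 0.16, against 0.00 over all genes tested. In U-937, 15 entered and none was a DEG, with a median of -0.12 against 0.02, and 3 of the 15 had an unadjusted p under 0.05 (ABCF2 at -0.75, ABCD4 at 0.59 and ABCF1 at -0.47), against 16.7% of all genes tested. Between the lines, 3 were higher and 5 lower in U-937 with DMSO, of 20 tested, and 2 higher and 6 lower with honokiol, so that 40.0% were called with either treatment, against 32.4% and 32.6% of all genes. ABCA5, ABCA1, ABCG1 and ABCC6 had the largest fold changes among those called with DMSO, with mean levels of 0.69 to 3.77 FPKM in THP-1 and of at most 0.0533 in U-937. These 4 passed the FPKM limit through THP-1 only, which fixed the direction of their calls. With honokiol 5 of the 8 called genes, these 4 and ABCB4, passed through THP-1 only. Their calls as lower in U-937 were fixed in the same way. ABCB4, a phosphatidylcholine pump and close relative of ABCB1, measured 0.753 FPKM in THP-1 DMSO and 0.88 in THP-1 honokiol and was listed at 0 in all U-937 libraries.

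**Figure D5:**
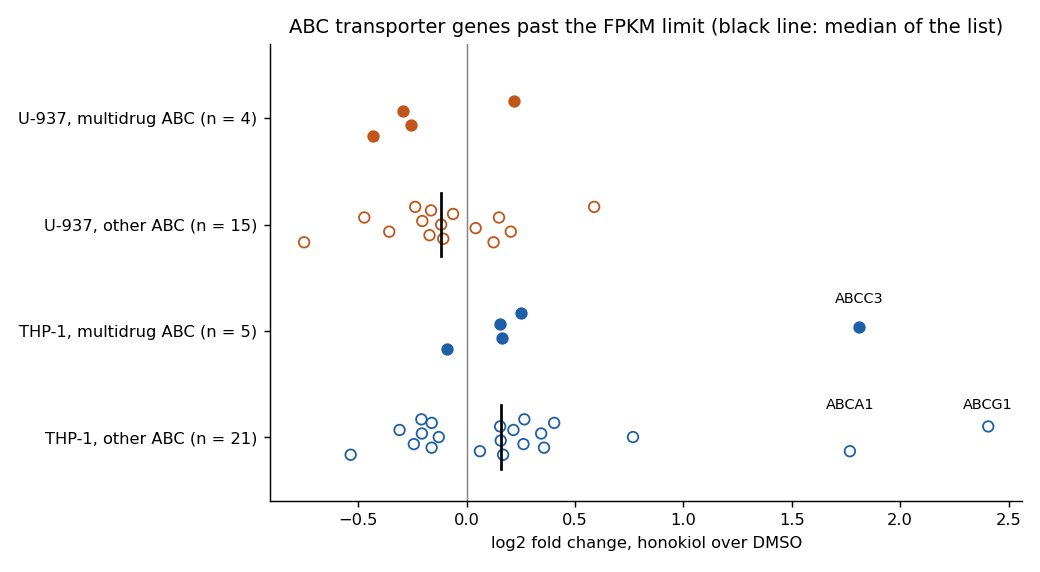
Log2 fold change of honokiol over DMSO (horizontal axis) of the ABC transporter genes that passed the FPKM limit, in THP-1 (blue) and U-937 (orange), where open circles are other ABC genes with their median as a black line and filled circles are the multidrug members. ABCG1, ABCA1 and ABCC3 stand at 2.41, 1.77 and 1.81 in THP-1, and the medians of the other ABC genes are 0.16 and -0.12.

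Of 20 regulators of transporter transcription, 17 entered in THP-1 and 16 in U-937, and no member of the list was a DEG with honokiol in either line. In THP-1 4 of the 17 were higher and 1 lower at an unadjusted p under 0.05, where 13.1% of all genes passed in either direction, with NR1H3, the oxysterol receptor LXR alpha, at a log2 fold change of 0.93 (SE 0.18, adjusted p = 0.136), PPARG at 0.67 and BACH1 at 0.52. In U-937 3 of the 16 were higher and 1 lower, where 16.7% of all genes passed, with NR1H3 at 1.37 (SE 0.31, adjusted p = 0.115), BACH1 at 0.67 and RXRA at -0.39. The list medians were 0.04 and 0.05 against 0.00 and 0.02 over all genes. NR1H3 measured 2.02 FPKM in THP-1 DMSO and 4.02 in THP-1 honokiol, and 0.697 and 1.97 in U-937. Between the lines with DMSO 2 were higher and 4 lower in U-937, of 17 (35.3%), and with honokiol 3 were lower (17.6%), against 32.4% and 32.6% of all genes. With DMSO the largest of these differences were those of PPARG (-1.64), NR1H3 (-1.55), NR1H2 (1.34), which encodes LXR beta, and AHR (1.32), the aryl hydrocarbon receptor. With honokiol the 3 lower ones were PPARG (-1.61), YBX1 (-1.19) and NR1H3 (-1.12).

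Of 20 uptake carriers for drugs and anions, 11 entered in each line and none was a DEG with honokiol. SLC22A5, the carnitine carrier, had a log2 fold change of 1.18 (SE 0.26, adjusted p = 0.168) in THP-1 and 0.60 (SE 0.18, adjusted p = 0.181) in U-937. SLC22A16 was at -0.63 in THP-1, and SLCO4A1 and the nucleoside carrier SLC29A1 were at -0.72 and -0.58 in U-937, none past the criterion. Between the lines 2 were higher and 5 lower in U-937 with DMSO (63.6% of 11), and 3 higher and 3 lower with honokiol (54.5%), against 32.4% and 32.6% of all genes. Those 4 that differed most with DMSO were SLC29A2 (-2.82), SLCO4A1 (2.45), SLC22A16 (-2.16) and SLC28A3 (-1.58). SLC29A2 and SLC28A3 carry nucleosides, the reverse route to the nucleotide analogue export of ABCC4 and ABCC5. The nucleoside carrier SLC29A1 went the other way, at 25.3 FPKM in THP-1 DMSO and 50.5 in U-937 DMSO. Its log2 fold change was 0.95 (edgeR adjusted p = 0.00785), short of the fold limit.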

How the data were processed

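The authors deposited 1 table with FPKM values (2 decimals, normalized by the authors to transcript length and library size) and estimated counts, which the authors did not normalize, for 36866 genes in 12 poly(A) RNA libraries. The submitters' processing notes name HISAT2 2.0, StringTie 1.3.0, Bowtie 0.12.2 and a mouse build, but 35687 of 35762 matched genes had the place and strand of GENCODE 29 on GRCh38. Among the deposited estimated counts the value 4 (17264 times) was far more frequent than 3 (6764) or 5 (4016), so a fragment was taken as about 4 counts. Groups were read from the labels. The tests in edgeR 4.0.16 (R 4.3.3), with TMM, rounded no value, since the counts were whole, and used genes that reached 0.5 FPKM in 3 or more of the 6 libraries compared (of 12 for the difference of responses). Standard errors are from the quasi-likelihood F statistic. The count test had been planned if counts were deposited. Counting intervals at 95% and the floor of 3 fragments cover counting error only.

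The members are named whatever their values. Of each list up to 4 DEGs of largest change were named, or, with no DEG, up to 3 genes of lowest unadjusted p under 0.05. The genes most like a member are the 3 of highest r, for members with a mean of 1 FPKM or more in a group. The members and lists were chosen with earlier results of these data known. Alternatives were RLE size factors, no FPKM limit, DESeq2 1.42.0, limma 3.58.1 on log2(FPKM + 0.5) and log2(FPKM + 0.1), a replicate block, one fit of 12 libraries, counts divided by 4, calls at any fold change and each library left out. Fits without the limit for ABCC2 and ABCC3, and without both DMSO libraries numbered 1, were added after seeing the data. The scripts' tests were tested on simulated data. Protein sequences were not used here. Some marker genes are not reported here.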

Additional observations from a re-analysis of the deposited data

Results flagged for a closer look

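The ABCC5 libraries with honokiol all lay above those with DMSO in THP-1 and all below them in U-937, although neither change passed the test. Its log2 fold change was 0.25 in THP-1 (95% interval -0.07 to 0.57) and -0.43 in U-937 (-0.72 to -0.15). Groups did not overlap for 20.6% (THP-1) and 24.2% (U-937) of all genes tested. The log2 fold change in U-937 less that in THP-1 was -0.69, and it lay between -0.76 and -0.56 over the 21 alternatives run. The test of the difference, by edgeR's quasi-likelihood test, gave an adjusted p of 0.232, which misses the threshold, and adjusted p-values from 0.00690 (DESeq2) to 0.525 (no FPKM limit). Without both DMSO libraries numbered 1 the difference was -0.69 as well, with an adjusted p of 0.237. The dose in each line is not given by the labels, so that line and dose cannot be told apart.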

How the results depend on the processing

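With honokiol against DMSO in THP-1, 6 genes were DEGs, against 0 without the FPKM limit, 250 with DESeq2, 0 with limma on either FPKM scale, 0 with the replicate block and 33 in one fit of 12 libraries. Leaving out a library gave 0 to 43, with 1 without DMSO replicate 1, 0 without DMSO replicate 2, honokiol replicate 2 or honokiol replicate 3, and 43 without honokiol replicate 1. In U-937 13 genes were DEGs, against 223 with DESeq2, 0 with the block and 108 in one fit of 12 libraries, and 0 to 6 with a library left out (6 and 4 without DMSO replicates 1 and 3, 4 without honokiol replicate 1 and 0 without each of the other 3). Between the lines 4730 genes with DMSO became 2831 without both DMSO libraries numbered 1, and 3341 to 4210 with any single library left out. With honokiol, 4935 became 8638 at any fold change. For the difference of responses 18 genes became 181 with DESeq2, 2 and 1 with limma on log2(FPKM + 0.5) and log2(FPKM + 0.1), 0 with the block, 0 with counts divided by 4, 7 without both DMSO libraries numbered 1 and 1 to 22 with a library left out. Among these, leaving out U-937 DMSO replicates 1 and 2 gave 22 and 12, THP-1 honokiol replicate 1 gave 10, and each of the other 9 gave 1 to 8. The cause was not tested for any of these.

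Of 524 fits of the members under alternatives, 496 kept direction and side of the threshold, 5 lost and 4 gained a call and 19 changed sign. Sign changes between the lines with honokiol were, with limma on log2(FPKM + 0.5), ABCC1 at 0.026, ABCC5 at 0.034 and ABCC10 at 0.0056, and on log2(FPKM + 0.1), 0.027, 0.038 and 0.0047. With a library left out these ran from -0.23 to 0.092 for ABCC1, -0.15 to 0.010 for ABCC5 and -0.18 to 0.11 for ABCC10. ABCC2 with honokiol in THP-1 ran from -0.080 to 0.36, the ABCC10 difference of responses from -0.11 to 0.20 with a single library left out and to 0.29 without both DMSO libraries numbered 1, and the ABCC3 difference was -0.99 and -1.23 with limma. ABCC2 between the lines with DMSO lost its call on log2(FPKM + 0.5) (0.53) and with the replicate block (adjusted p = 0.0502), and ABCC3 lost it on log2(FPKM + 0.5) (-0.78), where the pseudocount exceeds both levels. ABCC3 in THP-1 without the FPKM limit gained a call with counts divided by 4 (adjusted p = 0.00232). Libraries with the same replicate number in the labels correlated at -0.155 to 0.113 in their deviations, and not every library correlated best with its own number. The main fits did not pair them. Between the DMSO groups of the lines the same-number values were all above 0 (0.0954, 0.0285 and 0.113), and whether the numbers link libraries there was not tested. The depth limits ABCB1, ABCG2 and, in U-937, ABCC3, whose levels rest on few fragments.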

Other observations

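Of 22 enzymes listed for conjugation, some of which make the cargo of several ABCC pumps, 17 entered in THP-1 and 13 in U-937. None was a DEG with honokiol against DMSO. Besides enzymes of glutathione synthesis and glutathione transferases, the list held UGT1A1, UGT2B7, SULT1A1, GGT1 and GGT5. GSTO1 in THP-1 (log2 fold change 0.53) and MGST2 in U-937 (0.47) were the only members of the list with an unadjusted p under 0.05. That is 1 of the 17 and 1 of the 13, where 13.1% and 16.7% of all genes tested passed. Between the lines 3 were higher and 4 lower in U-937 with either treatment, of 17 (41.2%), against 32.4% of all genes with DMSO and 32.6% with honokiol. The 4 lower ones were the mu class glutathione transferases GSTM1, GSTM2, GSTM3 and GSTM4, near-identical neighbours between which reads can be split, so that their separate values are uncertain. With DMSO they measured 9.61, 1.53, 10.3 and 2.60 FPKM in THP-1, and in U-937 GSTM1 and GSTM4 were listed at 0 while GSTM2 and GSTM3 were at 0.0233 and 0.0067. All 4 passed the FPKM limit through THP-1 only, which fixed the direction of their calls. GCLC, the catalytic subunit of the first enzyme of glutathione synthesis, was higher in U-937, with a log2 fold change of 1.97 (SE 0.31, edgeR adjusted p = 0.00097) with DMSO and 1.75 (SE 0.18, adjusted p = 0.000163) with honokiol. GSTM1 was the one gene of the list called for the difference of responses, but its U-937 DMSO libraries were all listed at 0 and its U-937 honokiol libraries at 0.05 to 0.09 FPKM, so no fold is given and the call rests on a group at 0.

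The list of scaffold proteins that hold pumps in the membrane or travel with them held 10 gene symbols. SLC9A3R1 and SLC9A3R2 were each listed under an old and a new symbol, and 8 symbols were in the table. Of these, 7 entered in THP-1 and 5 in U-937, and none was a DEG with honokiol. In THP-1 the lowest unadjusted p-values were those of CAV1 (caveolin, log2 fold change -1.12, SE 0.33, edgeR adjusted p = 0.264), EZR (ezrin, -0.44, adjusted p = 0.293) and MVP (the major vault protein, 0.38, adjusted p = 0.324). In U-937 they were those of SLC9A3R1 (-0.85, SE 0.22, adjusted p = 0.146), EZR (-0.42, adjusted p = 0.179) and MSN (moesin, -0.45, adjusted p = 0.219). The list medians were -0.27 and -0.42, against 0.00 and 0.02 over all genes tested. Between the lines 3 of 7 were DEGs with DMSO (42.9%) and 3 of 6 with honokiol (50.0%), against 32.4% and 32.6% of all genes. MSN was higher in U-937 (1.45 and 1.25). SLC9A3R2 (-3.60 and -4.21) was lower with either treatment and CAV1 (-3.29) with DMSO, and both passed the FPKM limit through THP-1 only, which fixed the direction. MVP was lower with honokiol (-1.07).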
